A study of Homo sapiens with 12 samples.

Results

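Messenger RNA was compared between 293T cells that received either of 2 vectors for the small RNA CU1276 and cells that received an empty vector. All 12 arrays of the series entered. The 8 arrays titled as tRNA vector or hairpin vector formed 1 group and the 4 arrays titled as empty vector the other (called tRNA, hairpin and empty arrays below), chosen by their titles and not by any measured value. 293T is a human embryonic kidney line that carries the SV40 large T antigen. The cells were transfected transiently with polyethylenimine and were collected 48 hours later. In 4 arrays the vector held chr1.tRNA68-Gly(GCC), a glycine tRNA gene that the labels describe as cut to give CU1276, and in 4 arrays it held an artificial hairpin for CU1276. All groups thus shared the line, the reagent and the time, and differed in the insert. The arrays average over transfected and untransfected cells, so fewer cells with less of a transcript and less of it in every cell cannot be told apart. The share of cells transfected is not given in the sources used here.

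MicroRNAs are short RNAs that Argonaute proteins hold against matching sites in messenger RNAs, which are then translated less and broken down sooner. Most are cut by DROSHA with DGCR8 and then by DICER1 from hairpin transcripts, while some short RNAs are cut from tRNAs. Part of a small RNA's effect is therefore seen as lower messenger RNA of its targets, usually by a small amount. Pooling both vectors asks which transcripts differ from the empty vector on average over both precursors of CU1276. RPA coats single-stranded DNA while it is copied or mended, and its largest subunit, RPA1, is the target the study is known for.

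Each array gave a signal for 54675 probe sets, with a median of 75.9 to 104 per array. Signals of 24 probe sets for Bacillus RNAs, which are added during labelling, averaged 1940.8 to 2061.5 in the arrays numbered 1, 370.9 to 431.5 in those numbered 2 and 19.8 to 27.6 in those numbered 3 and 4. Each number holds 1 array of every vector, so these levels follow the number and not the vector. GAPDH, read at its 3' and 5' ends as a sign of RNA quality, gave a 3'/5' ratio of 1.33 ± 0.125, 1.36 ± 0.129 and 1.35 ± 0.223 for the empty, tRNA and hairpin vectors (SD, n = 4). Of 13 kidney progenitor and neuronal genes known from 293T cells, 10 were above the filter on dim signals, led by the neurofilament gene NEFM. Summed over these genes, signal ran from 12978.1 to 14742.8, from 13968.9 to 15108.7 and from 13221.5 to 15182.7 in the same order. Markers of other cell types were dimmer. Of 8 B cell markers 5 were above the filter, the brightest being PAX5 at 110, and of 11 T and myeloid markers 4, the brightest being ITGAM at 115. Of 10 fibroblast markers 7 were above it, the brightest being COL1A1 at 799. Summed B cell markers were 483.7 to 645.8, 439.7 to 710.0 and 418.4 to 616.0 in the 3 groups in the same order, T and myeloid markers 493.2 to 776.0, 499.2 to 694.2 and 395.9 to 720.3, and fibroblast markers 1105.4 to 1629.2, 1170.9 to 1377.9 and 1093.2 to 1590.5, which overlapped throughout.

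No transcript passed the test of the pooled vectors against the empty vector, whose mean a change under either vector alone can also move. Of 32768 tested probe sets, 0 had an adjusted p under 0.05 in limma, a linear model fitted across all probe sets (percent called 0, smallest adjusted p = 0.356). At an unadjusted p under 0.05 there were 1095 higher with the vectors (3.34%) and 755 lower (2.3%). Chance alone would give 1638 on average, both directions together, and dependence between probe sets can widen the spread of that count. Since 0 probe sets passed, the genes below are given as values. The precision was moderate. The median standard error of the pooled log2 difference was 0.159, against 0.181 for each vector alone, and the median 95% interval spanned 0.338 to either side, a fold of 1.26. For 77.1% of probe sets that interval lay within a 2-fold change in either direction, and for 58.7% within a 1.5-fold change.

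By moderated t, which sets a difference against its standard error, RPA1 stood among the lowest genes with the pooled vectors. In its brightest probe set the signal was 6297, 5662, 5898 and 5587 in the empty vector arrays numbered 1 to 4. It was 5177, 4662, 5452 and 4951 in the tRNA arrays and 5679, 4587, 4939.9 and 4922 in the hairpin arrays. All 8 vector arrays lay below the empty vector array of their own number, as did 479 of all tested probe sets (1.46%). The groups as a whole overlapped, through hairpin vector array 1 at 5679, which lay above empty vector arrays 2 and 4. Over all genes the pooled log2 differences had an SD of 0.264. That of RPA1 was -0.22 ± 0.052 (limma standard error, 95% interval -0.33 to -0.11), a fold of 0.860. It ranked 29 by p among all tested probe sets and 16 among 13952 genes, each taken by its brightest probe set, and 7 from the lowest by moderated t. The limma p was 7.28e-04 unadjusted, and the adjusted p was 0.822. An exact permutation test of the mean log2 difference, over the 81 ways to take 1 array of each number as the empty vector, gave p = 0.0123 (two-sided), the smallest it can give. The same exact permutation test over all ways to choose 4 of the 12 arrays gave 0.0121, where the smallest possible is 0.00202. RPA1 was named as the study's known target and with earlier results of these data known, so its unadjusted p-values are not an independent test.

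**Figure D1:**
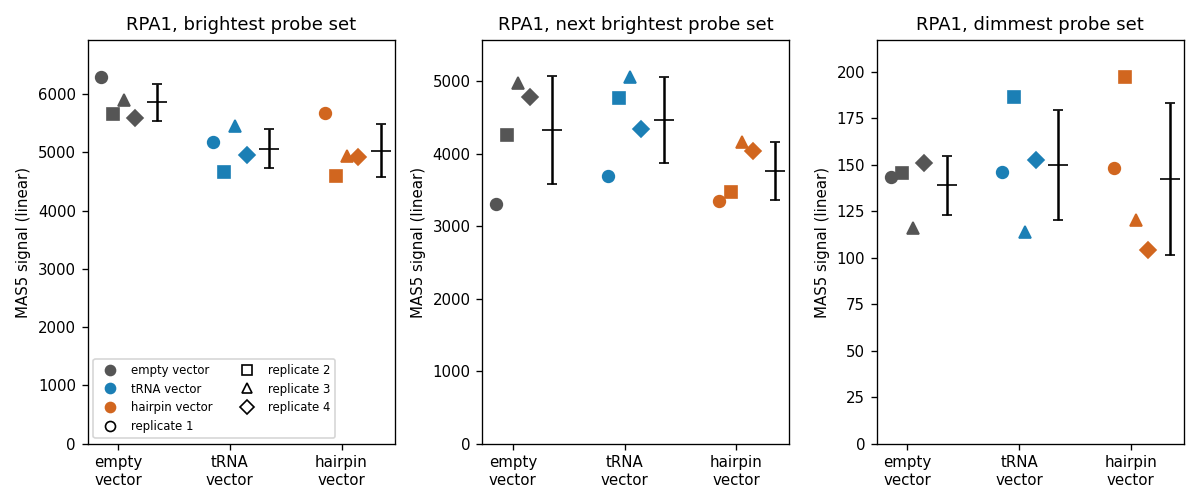
MAS5 signal on a linear scale (y axis) of the 3 RPA1 probe sets in the empty, tRNA and hairpin vector arrays (x axis), with marker shapes for the replicate number and bars for the mean ± SD of 4 arrays. The brightest probe set is lower in each vector array than in the empty vector array of its number, and the other probe sets overlap between all groups.

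In the brightest RPA1 probe set the vectors stood at like values. On the log2 scale RPA1 was at -0.21 ± 0.058 under the tRNA insert and at -0.22 ± 0.058 under the hairpin insert, and both differences share the same 4 empty vector arrays. Their difference, hairpin minus tRNA, was -0.010 ± 0.058 (limma adjusted p = 0.979). By replicate number the pooled log2 difference was -0.22, -0.29, -0.18 and -0.18. The other RPA1 probe sets did not give the same size. The next brightest stood at -0.070 ± 0.082 (95% interval -0.24 to 0.10), made of 0.053 ± 0.071 (tRNA) and -0.19 ± 0.071 (hairpin). Its signals were 3299, 4251, 4970.04 and 4784 in the empty arrays, 3689, 4764, 5058 and 4340.1 in the tRNA arrays, and 3352, 3477, 4155 and 4039.8 in the hairpin arrays, which overlap. The dimmest, with a mean signal of 139, 150 and 142 in the 3 groups, stood at 0.047 ± 0.20. Whether the probe sets read the same parts of the transcript was not tested.

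The other subunits of RPA stayed close to the empty vector. RPA2, which carries the phosphorylation sites used in damage signalling, had signals of 5415, 6805, 5586 and 6151 in the empty arrays, 6269.9, 6096.5, 5567 and 5751 in the tRNA arrays, and 6154, 5778, 5579 and 6015 in the hairpin arrays. Its pooled log2 difference was -0.017 ± 0.059 (95% interval -0.14 to 0.11). RPA3, the smallest subunit, stood at -0.039 ± 0.051 (95% interval -0.15 to 0.069), with 14209.8 in empty vector array 1 and 10632 to 12939 in the remaining arrays. The direction of both turned when single arrays were left out. These intervals exclude a log2 difference as large as the -0.22 of RPA1, but the difference between subunits was not tested. Among 12 genes of RPA and other single-stranded DNA binding proteins, 4 had a lower and 8 a higher mean with the vectors, and the median log2 difference was 0.070, against 0.0011 over all genes. That median was -0.011 for the tRNA vector alone and 0.084 for the hairpin vector alone, and 0.0097 without hairpin vector array 3. SSBP3, which acts in a transcription complex of LIM-domain proteins, stood at 0.23 ± 0.077 and NABP2, which binds single-stranded DNA at breaks, at 0.26 ± 0.12, with an unadjusted limma p under 0.05 for both. SSBP3 stood at 0.14 without empty vector array 3. None of its other 2 probe sets shared the direction, and NABP2 was picked after its value was seen. NABP2 stood at 0.40 (tRNA) and 0.12 (hairpin), and pooled at 0.18 without empty vector array 2. With 1 array left out its unadjusted limma p reached 0.194.

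The genes with the lowest moderated t were of varied function. NDUFAF8, an assembly factor of respiratory complex I, had signals of 5712, 4978, 5069 and 3900.1 in the empty arrays, 3916, 3879, 3783 and 3723 in the tRNA arrays, and 4479.7, 3497, 4131 and 3425 in the hairpin arrays. Every vector array was below the empty vector array of its number, while empty vector array 4 overlapped the vector arrays. Pooled, the log2 difference was -0.34 ± 0.066, a fold of 0.789 (limma adjusted p = 0.791), and its other probe set did not share the direction. RAB13, a GTPase of vesicle transport at cell junctions, had signals of 3832, 3716, 3141 and 3427 in the empty arrays, 2126, 2261, 2538 and 2401 in the tRNA arrays, and 2689, 3178, 2316 and 3087 in the hairpin arrays. The tRNA vector arrays all lay below the lowest empty vector array, and 1 hairpin vector array reached above it. Pooled, RAB13 stood at -0.46 ± 0.099.

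SPATA18, a p53 target that takes part in mitochondrial quality control, had signals of 1283, 946, 983 and 1119 in the empty arrays, 868, 538, 688 and 795 in the tRNA arrays, and 917, 840.2, 867 and 835 in the hairpin arrays. All 8 vector arrays lay below all 4 empty vector arrays, as in 44 of all tested probe sets (0.134%). The pooled log2 difference of SPATA18 was -0.46 ± 0.11 (fold 0.729). Its other probe set had the same direction. DNAI4, an intermediate chain of axonemal dynein, ran from 822 to 1414 in the empty arrays, from 672 to 1014 in the tRNA arrays and from 728 to 1216 in the hairpin arrays, and stood at -0.36 ± 0.081. All 4 of its other probe sets were lower too. BBOF1, a protein of ciliary basal bodies, ran from 893 to 1266, from 752 to 977 and from 703 to 963 in the same order, and stood at -0.37 ± 0.084. Each of these genes was lower in 8 of 8 vector arrays against the array of the same number, as were 479 of all tested probe sets (1.46%). These genes were selected by moderated t on the same arrays, so that count is fixed in part by the choice.

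Of the remaining genes with the lowest t, RNF185, a ubiquitin ligase of the endoplasmic reticulum, stood at -0.35 ± 0.082, and RANBP17, a nuclear transport receptor, at -0.45 ± 0.11. ZNF407-AS1, an antisense transcript, stood at -0.30 ± 0.076. In these 3 genes the vector and empty arrays did not overlap, as in 44 lower probe sets of all tested (0.134%). TM9SF4, a membrane protein of the endosomal and Golgi system, stood at -0.32 ± 0.082, with 1 other probe set in the opposite direction. RPA1 is the 7th of these 10. Their adjusted p in limma ran from 0.791 to 0.866.

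Among the genes with the highest moderated t, the top probe set belonged to PPID, a cyclophilin that works with HSP90. Its signals were 2484, 1841, 1302 and 1177 in the empty arrays, 3411, 2372, 1575 and 1815 in the tRNA arrays, and 3104, 2507, 1588 and 1944 in the hairpin arrays. The levels differed more between replicate numbers than between vectors, and the groups overlapped, yet all 8 vector arrays were above the empty array of their number, as in 464 of all tested probe sets (1.42%). The pooled log2 difference was 0.44 ± 0.069, a fold of 1.35, with the smallest p of all probe sets (limma adjusted p = 0.356). Both other PPID probe sets were higher too. The name of this probe set has the suffix that Affymetrix gave to sets with probes that also match other transcripts, so its source is uncertain.

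C14orf119, whose signals were 4094, 3773, 3749.6 and 3792 in the empty arrays, reached 5289, 4666, 4784 and 4096 in the tRNA arrays and 5589, 4192, 4451 and 4393 in the hairpin arrays. All vector arrays lay above all empty arrays, though tRNA vector array 4 was level with empty vector array 1, and the pooled log2 difference was 0.27 ± 0.058. ZNRD2 also had groups that did not overlap, with 759 to 936 in the empty arrays, 1068 to 1188 in the tRNA arrays and 968 to 1159.97 in the hairpin arrays, and stood at 0.38 ± 0.084. Such separation upward held in 50 of all tested probe sets (0.153%). COPE, a subunit of the coatomer that coats vesicles between Golgi and endoplasmic reticulum, had signals of 1671, 1606, 2350.3 and 1867 in the empty arrays, 1728, 2444, 2706 and 2850.4 in the tRNA arrays, and 2723, 2484, 3082 and 3589 in the hairpin arrays. Pooled, COPE stood at 0.52 ± 0.11, with all hairpin vector arrays above all empty arrays and 1 tRNA vector array among the empty ones.

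The larger folds came from dimmer probe sets. SEMA4G, a semaphorin, had 59.0, 111, 154 and 179.6 in the empty arrays, 168, 284, 269.7 and 289.6 in the tRNA arrays, and 265, 277, 200.3 and 224 in the hairpin arrays, a pooled log2 difference of 1.07 ± 0.23. SLA2, an adaptor that dampens signalling of antigen receptors, stood at 1.98 ± 0.44, from a mean of 28.5 ± 19.5 in the empty arrays to 90.9 ± 38.7 and 110.1 ± 54.6 with the tRNA and hairpin vectors (SD, n = 4). The empty vector mean lies under the signal of 43.3 at which dim probe sets were left out, so this gene passed through the vector arrays. NBL1, a BMP antagonist, stood at 1.12 ± 0.26, MXD3, a repressor that pairs with MAX, at 0.96 ± 0.22, and UAP1L1 at 0.58 ± 0.14. Without empty vector array 2 NBL1 stood at 0.70. MAP2K2, the kinase MEK2 of the ERK cascade, was bright, at 4138 ± 494 in the empty arrays, 4947 ± 456 in the tRNA arrays and 4939 ± 489 in the hairpin arrays, and stood at 0.26 ± 0.065. Of these 10 genes all but MAP2K2 were higher in 8 of 8 vector arrays against the same number, and MAP2K2 in 7. The 10 genes were selected by moderated t on the same arrays, so these counts are fixed in part by that choice. Of all tested probe sets, 464 (1.42%) were higher in 8 of 8.

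**Figure D2:**
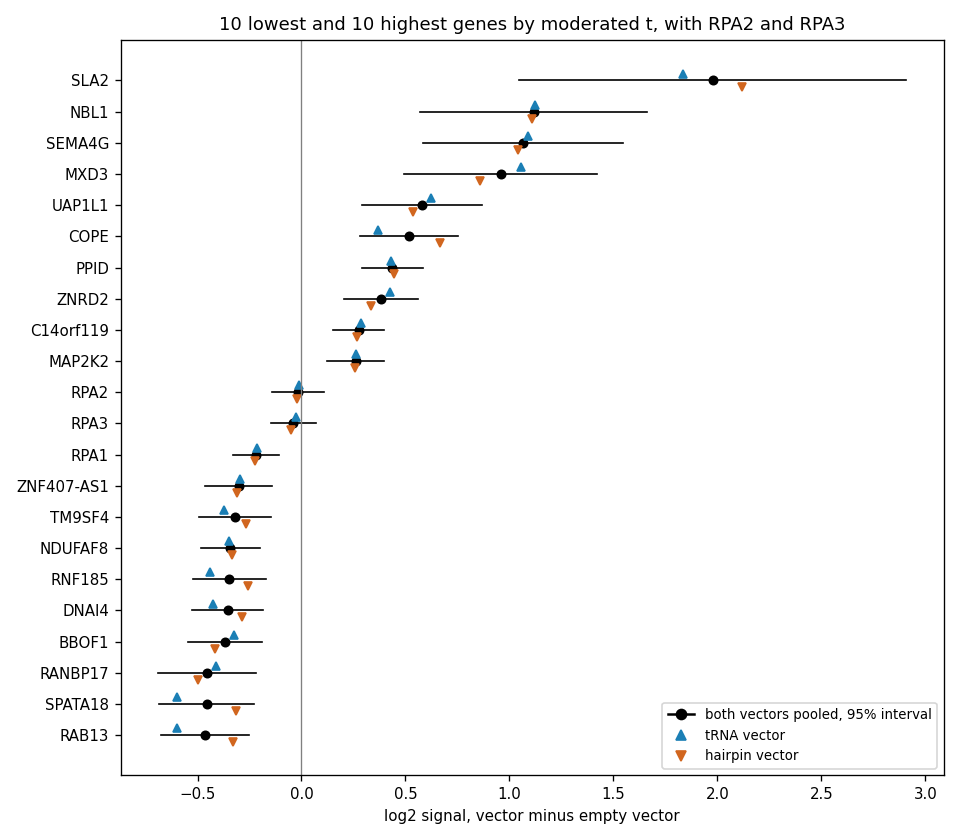
Log2 signal minus that of the empty vector (x axis) for the 10 genes with the lowest and the 10 with the highest moderated t, and for RPA2 and RPA3 (y axis). Black points with lines give the pooled difference and its 95% interval, and triangles the tRNA and hairpin vectors alone. For RPA1 both triangles lie at the pooled value of -0.22, while for RAB13, SPATA18 and COPE they lie apart.

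**Figure D3:**
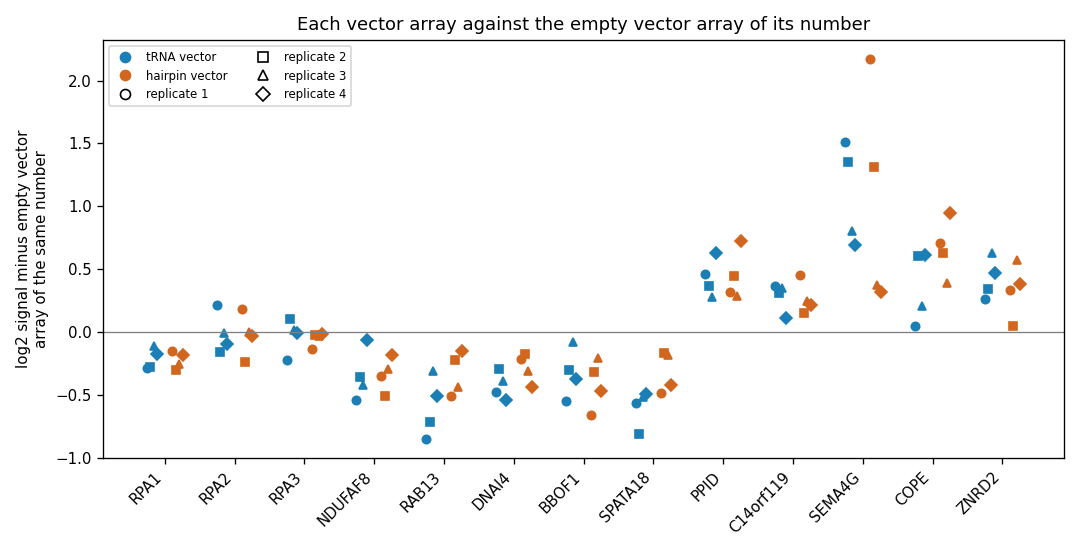
Log2 signal of each of the 8 vector arrays minus the empty vector array of the same number (y axis) for the 3 RPA genes and for the 5 genes with the lowest and the 5 with the highest moderated t (x axis), with colours for the vector and marker shapes for the number. The points of RPA1 all lie below 0, and those of RPA2 and RPA3 lie on both sides.

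These values were compared between the vectors, since a pooled mean can hide a difference. Among the 20 genes, hairpin minus tRNA had its smallest limma p for COPE, at 0.30 ± 0.10, RAB13, at 0.27 ± 0.094, and SPATA18, at 0.28 ± 0.10. RAB13 stood at -0.60 ± 0.094 in the tRNA arrays and -0.33 ± 0.094 in the hairpin arrays, and SPATA18 at -0.60 ± 0.10 and -0.31 ± 0.10. COPE stood at 0.37 ± 0.10 and 0.67 ± 0.10. After adjustment over all probe sets none of these passed (limma adjusted p = 0.501, 0.515 and 0.543). The 20 genes were selected on the pooled mean of the same arrays, so a like sign in both vectors is fixed in part by that choice.

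Few probe sets had arrays that separated entirely by vector. In 44 probe sets all 8 vector arrays lay below all 4 empty vector arrays (0.134%), and in 50 all lay above (0.153%). The lower ones had a median log2 difference of -0.42 and ran from -0.16 to -2.07, and the higher ones a median of 0.47, from 0.12 to 2.09. They held 34 and 43 probe sets with 1 gene symbol, of which 21 and 20 were the brightest of their gene (0.151% and 0.143% of genes). In 8 of the lower and 9 of the higher ones the mean of the low side was under the filter signal of 43.3, so they passed only through the group where they were high. Among the other 36 and 41, values ran from -1.33 to -0.16 and from 0.12 to 1.40. On the lower side, POLQ, the polymerase of end joining by short homologies, stood at -0.35 ± 0.097 and GADD45B, a stress-induced signalling protein, at -0.38 ± 0.11. CARS1, which charges tRNA with cysteine, stood at -0.21 ± 0.064. On the higher side were BMP2, a growth factor, at 0.91 ± 0.28, and MRPL14, a protein of the mitochondrial ribosome, at 0.17 ± 0.058. POLQ, GADD45B, BMP2 and MRPL14 were picked after their values were seen.

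In 6 probe sets the vectors differed from each other in limma after adjustment (0.0183%), while 4.21% of probe sets were higher and 3.71% lower with the hairpin vector at an unadjusted p under 0.05. MANF, a secreted factor that cells make under protein-folding stress, had signals of 4262, 4467, 4215 and 4360.2 in the empty arrays, 4947, 4716, 4539.8 and 4287 in the tRNA arrays, and 3495, 3433, 3439.9 and 3480.3 in the hairpin arrays. The hairpin vector arrays lay below all others. Pooled, MANF stood at -0.11 ± 0.11, made of 0.094 ± 0.059 (tRNA) and -0.32 ± 0.059 (hairpin), and hairpin minus tRNA was -0.42 ± 0.059 (limma adjusted p = 0.0442). MAP2K4, a kinase that activates JNK, likewise was low only in the hairpin vector arrays, at 1311 to 1557 against 1878 to 2118 in the other 8. Pooled, MAP2K4 stood at -0.24 ± 0.13, made of 0.0067 ± 0.071 (tRNA) and -0.49 ± 0.071 (hairpin).

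In other probe sets the tRNA vector stood apart. CIRBP, a cold-inducible RNA-binding protein, had signals of 3026 to 3676 in the tRNA arrays, below the 4131 to 4842 of the empty vector and the 4403 to 4747 of the hairpin vector. The pooled log2 difference of -0.19 ± 0.11 was made of -0.40 ± 0.064 and 0.026 ± 0.064 in that order. Only 1 of its 4 other probe sets shared the pooled direction. IFNGR1, a chain of the interferon gamma receptor, stood at -0.15 ± 0.10, made of -0.35 ± 0.058 (tRNA) and 0.045 ± 0.058 (hairpin), with 1 of 2 other probe sets in the pooled direction. The pooled direction does not tell whether the other probe sets of CIRBP and IFNGR1 differed between the vectors. A probe set that is not listed with a gene had the largest difference between vectors, 0.85 ± 0.084 (limma adjusted p = 0.00231). Its signals were 913 to 1355 in the empty arrays, 696 to 816 in the tRNA arrays and 1147 to 1496 in the hairpin arrays. Against the empty vector it stood at -0.63 ± 0.084 (tRNA) and 0.22 ± 0.084 (hairpin), on opposite sides. MANF, MAP2K4, CIRBP and IFNGR1 each had an adjusted p of 0.0442 in limma for hairpin minus tRNA. Leaving out 1 array gave 1 to 10 calls in place of 6, and over 20 other settings MANF passed in 7, CIRBP in 8 and the unlisted probe set in 18.

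**Figure D4:**
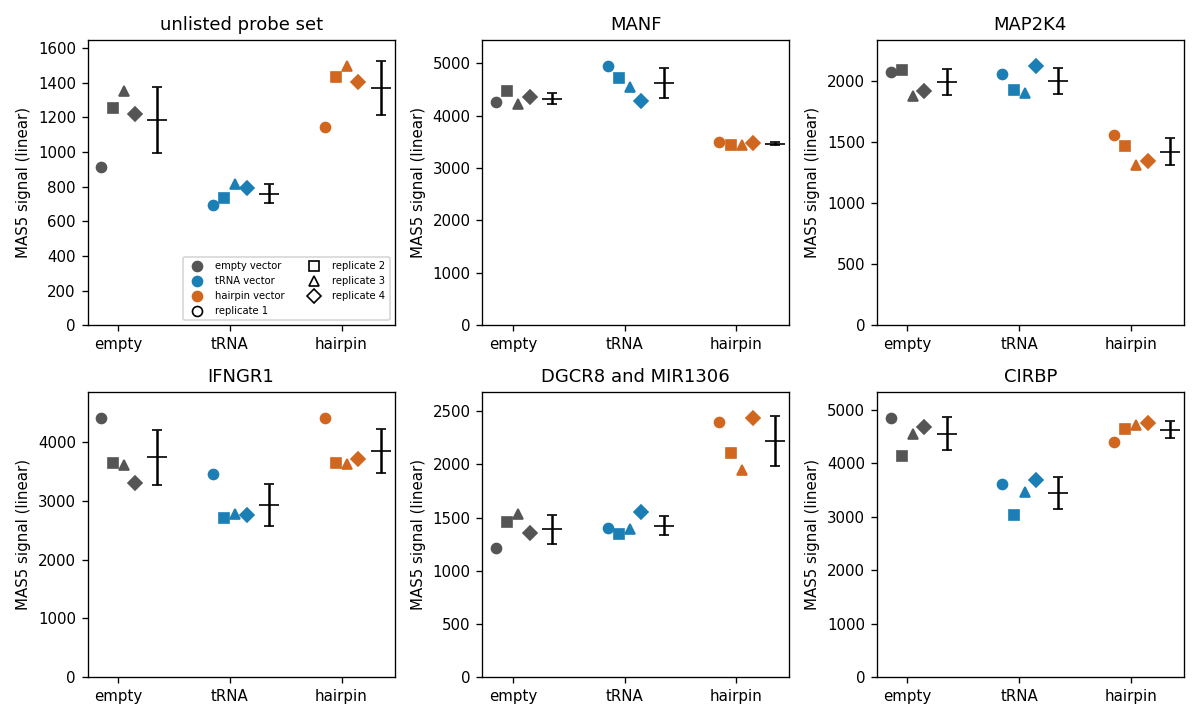
MAS5 signal on a linear scale (y axis) of the 6 probe sets that passed limma between the vectors, in the empty, tRNA and hairpin vector arrays (x axis), with marker shapes for the replicate number and bars for the mean ± SD of 4 arrays. MANF and MAP2K4 are low and the DGCR8 and MIR1306 probe set is high in the hairpin vector arrays, while CIRBP, IFNGR1 and the unlisted probe set are low in the tRNA vector arrays.

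The last of the 6 is listed with both DGCR8, the RNA-binding partner of DROSHA, and MIR1306, the microRNA hairpin within that gene. Its pooled log2 difference of 0.36 ± 0.16 joined 0.039 ± 0.094 under the tRNA insert and 0.68 ± 0.094 under the hairpin insert. Hairpin minus tRNA was 0.64 ± 0.094 (limma adjusted p = 0.0442). The signals were 1215 to 1533 in the empty arrays, 1350.1 to 1549.5 in the tRNA arrays and 1951 to 2436 in the hairpin arrays. The 3 further probe sets listed with this pair had pooled log2 differences of 0.35 ± 0.12, 0.29 ± 0.16 and 0.76 ± 0.59. They stood at 0.13, 0.016 and 0.37 under the tRNA insert and at 0.57, 0.57 and 1.15 under the hairpin insert. Hairpin minus tRNA was 0.44 ± 0.084, 0.55 ± 0.13 and 0.79 ± 0.67, the same direction as in the first probe set. None of these 3 passed between the vectors (limma adjusted p = 0.153, 0.227 and 0.820), and the first probe set passed in 7 of 20 other settings. The mature microRNAs of that hairpin are shown because the array reads their host transcript and not the mature forms. They lie on the plus strand of chromosome 22 in GRCh38.p14 (RefSeq), the 5p form at chr22:20086072-20086093 and the 3p form at chr22:20086112-20086129, and capitals mark the seed, bases 2 to 8.
hsa-miR-1306-5p: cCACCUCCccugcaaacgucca
hsa-miR-1306-3p: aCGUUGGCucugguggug

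Gene lists of the DNA damage response stood near 0 in the pooled comparison. Values are counts and medians over genes, each by its brightest probe set, beside all 13952 genes, of which 49.6% had a lower mean with the vectors and the median log2 difference was 0.0011. At an unadjusted p under 0.05, 2.46% of all genes were lower and 3.66% higher, and 0 genes of any list passed after adjustment over all probe sets in limma. Of 35 genes of damage signalling and homologous recombination, 21 were lower and 14 higher, with a median of -0.030, which was -0.0040 without empty vector array 4. MRE11, a nuclease of break repair, stood at -0.15 ± 0.067, a direction that neither other probe set shared, and CHEK1, the kinase of the replication checkpoint, at -0.13 ± 0.059, with its 3 other probe sets also lower. Both had an unadjusted p under 0.05, as did 0 genes in the higher direction. Of 50 DNA replication genes, 14 were lower and 36 higher, with a median of 0.022. ORC5, a subunit of the origin recognition complex, stood at -0.18 ± 0.060, and CDC6, which loads the replicative helicase at origins, at 0.17 ± 0.067.

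Of 26 p53 target genes, 19 were lower and 7 higher, with a median of -0.056. At an unadjusted p under 0.05, 4 were lower and 1 was higher. Beside SPATA18, the lower ones were CMBL at -0.28 ± 0.11, RRM2B, a ribonucleotide reductase subunit, at -0.21 ± 0.083, and GADD45A, a stress-induced signalling protein, at -0.14 ± 0.058, the last 3 picked after their values were seen. GADD45A stood at -0.083 without empty vector array 1. PLK3, a polo-like kinase, was the higher one, at 0.65 ± 0.24, with neither other probe set in that direction, and stood at 0.27 without empty vector array 2. The list median was -0.13 for the tRNA vector alone and 0.029 for the hairpin vector alone. As background, large T antigen binds p53 in this line. Of 38 E2F and cell cycle genes, 25 were lower and 13 higher, with a median of -0.026. Its members with the smallest p went opposite ways, with AURKB, the kinase of the chromosomal passenger complex, at 0.31 ± 0.10 and AURKA, the spindle pole kinase, at -0.16 ± 0.063. The AURKB difference was made of 0.46 ± 0.088 (tRNA) and 0.15 ± 0.088 (hairpin).

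Genes that make or use small RNAs and tRNAs showed no shared direction. Of 18 genes of the microRNA pathway, 9 were lower and 9 higher, with a median of 0.0033, which went below 0 under quantile normalization and when some single arrays were left out. DGCR8 is not among these genes, since its tested probe sets are listed with MIR1306 too. The Dicer partners TARBP2 and PRKRA stood at 0.19 ± 0.077 and -0.081 ± 0.059. TARBP2 stood at 0.11 without empty vector array 2, and PRKRA at -0.034 without empty vector array 1. Of 28 tRNA processing and cleavage genes, 12 were lower and 16 higher, with a median of 0.016, which was -0.0069 without empty vector array 3. RNH1, the inhibitor of the tRNA-cleaving ribonuclease angiogenin, stood at 0.20 ± 0.088, with its other probe set in the opposite direction. TRMT5, a tRNA methyltransferase, stood at 0.096 ± 0.045, from a probe set that may match other transcripts, and its other probe set did not share the direction. Of 21 genes of RNA polymerase III and its factors, which transcribe tRNA genes, 8 were lower and 13 higher. The median was 0.020 and the mean -0.011, and the median was -0.022 without empty vector array 3, with POLR3F, a subunit, at -0.30 ± 0.12 and TBP, the TATA-binding protein, at -0.21 ± 0.088. Of 18 genes of the aminoacyl-tRNA synthetase list, 12 were lower and 6 higher, with a median of -0.054. CARS1, at -0.21 ± 0.064, ran from 10549 to 11619.7 in the empty arrays, 9689 to 10426.5 in the tRNA arrays and 8132 to 10246 in the hairpin arrays, and the vector arrays did not overlap the empty ones. VARS1, which charges tRNA with valine, stood at 0.25 ± 0.099, and at 0.095 without empty vector array 2.

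Stress and housekeeping lists also stayed near 0. In the integrated stress response and serine-glycine metabolism 8 of 24 genes were lower and 16 higher, with a median of 0.036 and a mean of -0.019. VLDLR, a lipoprotein receptor, stood at -0.49 ± 0.21 and EIF2AK4, the kinase GCN2 that senses uncharged tRNA, at 0.25 ± 0.11. VLDLR stood at -0.33 without empty vector array 1, and EIF2AK4 at 0.097 without empty vector array 3. The other EIF2AK4 probe set did not share the direction. Of 23 endoplasmic reticulum chaperone genes, 11 were lower and 12 higher (median 0.0081, mean -0.016), with the stress sensor ERN1 at -0.19 ± 0.092 and DERL2, of the degradation channel, at -0.13 ± 0.068. That median was -0.015 without empty vector array 2. The other DERL2 probe set did not share the direction of the one used. Of 16 tested interferon response genes out of 29, 10 were lower and 6 higher (median -0.074), a median that was 0.013 without empty vector array 2 and 0.018 without hairpin vector array 2. DDX60, an antiviral helicase, stood at 0.56 ± 0.28, and at 0.21 without empty vector array 2. IRF1, a transcription factor of the response, stood at -0.30 ± 0.18, made of -0.55 ± 0.16 (tRNA) and -0.052 ± 0.16 (hairpin).

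Of 36 ribosomal protein genes 35 were higher, with a median of 0.034, while 0 had an unadjusted p under 0.05. The direction rested on single arrays, with a median of -0.041 without empty vector array 2 and 0.13 without empty vector array 1. Their mean by replicate number was -0.26, 0.24, 0.063 and 0.081, a spread larger than the median. The median was 0.0052 with quantile normalization, and by vector 0.10 (tRNA) and -0.029 (hairpin). RPS9 and RPS12 stood at 0.12 ± 0.055 and 0.078 ± 0.067. Without empty vector array 2 RPS12 stood at 0.014, and without empty vector array 1 at 0.175. Of 32 respiratory chain genes, 12 were lower and 20 higher (median 0.028, and 0.0083 without empty vector array 3). NDUFV1, of complex I, stood at 0.22 ± 0.091, made of 0.37 ± 0.074 (tRNA) and 0.073 ± 0.074 (hairpin). SDHC, of complex II, stood at -0.22 ± 0.091, made of -0.34 ± 0.086 and -0.093 ± 0.086 in that order. Only 2 of its 6 other probe sets shared the direction, and the probe set used may match other transcripts. SDHC stood at -0.11 without empty vector array 1.

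**Figure D5:**
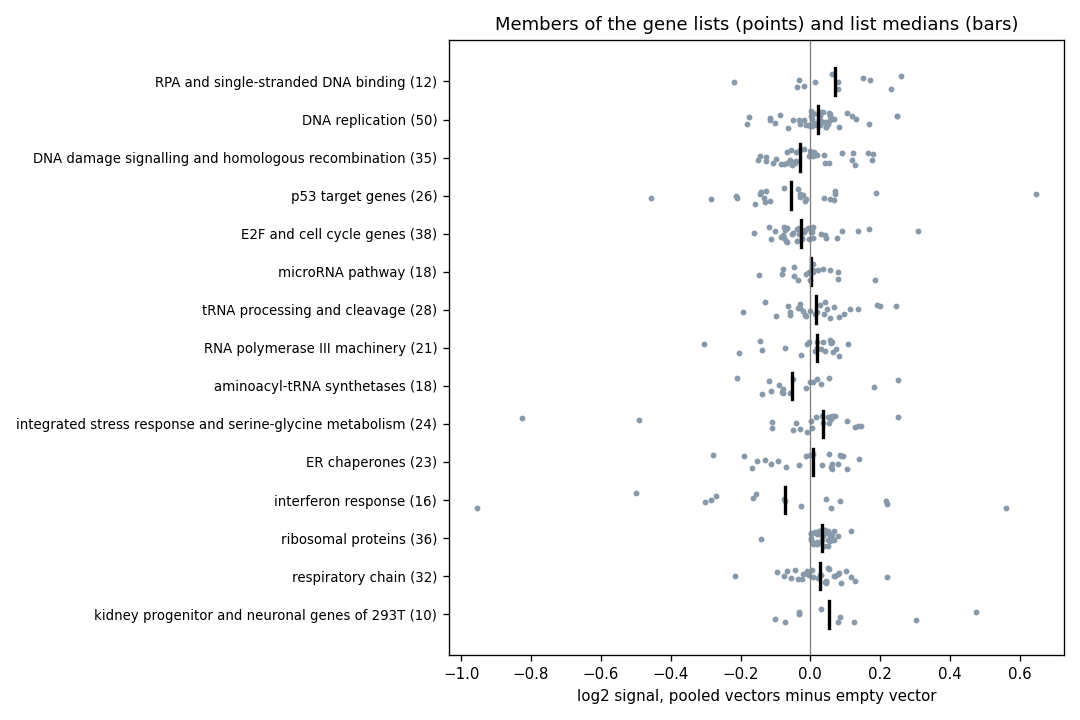
Log2 signal of the pooled vectors minus the empty vector (x axis) for the members of 15 gene lists (y axis, with the number of genes tested in parentheses). Points are genes by their brightest probe set and bars are list medians, which lie between -0.074 and 0.070.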

How the data were processed

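RNA of 12 samples, 4 per vector, was labelled from 12 micrograms of total RNA, per the labels, and read on 1-colour arrays. The authors deposited MAS5 signal intensity on a linear scale, per the submitters' processing notes, with each array scaled to a 2% trimmed mean of 500.1. The MAS5 version, genome build and annotation version are not given in the sources used here. Gene symbols came from the platform annotation, checked by Entrez identifier against RefSeq. 41097 probe sets had 1 symbol, 1801 several and 11777 none.

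Signals were taken to log2. The 62 controls and 21845 probe sets under the 40th percentile of mean log2 signal (a signal of 43.3) were left out. limma 3.58.1 in R 4.3.3 (eBayes with an intensity trend) fitted both vectors as 1 group against the empty vector with the replicate number as a block, and, with 3 group means, each vector and hairpin minus tRNA. The block follows from how the comparison was set. Adjusted p is Benjamini-Hochberg's, taken across the 32768 tested probe sets, with a two-sided threshold of 0.05. ± after a log2 difference is the limma standard error over 8 against 4 arrays, or 4 against 4 for 1 vector. The labels call the replicates biological, with no further origin given, so p-values measure the spread between these samples. Counts of groups that did not overlap and of arrays against the same number were added after values were seen. The number of arrays limits the precision. The fit was tested on simulated data.

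Named genes were RPA1 to RPA3, the 10 lowest and 10 highest genes by moderated t, since fewer than 10 passed in each direction, the 2 members of each list with the smallest p, and the probe sets that passed between the vectors, of which 1 had 2 symbols and 1 none. The comparison, members and lists were chosen with earlier results of these data known. Alternatives were the block, separate vector means, the trend, normalization, offset, filter and each array left out.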

Additional observations from a re-analysis of the deposited data

Results flagged for a closer look

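Of the named genes and list means, 246 groups of 4 arrays were examined for a value far from the other 3, and 15 held one, where chance gives about 1 in 20. Most were arrays numbered 1. In empty vector array 1, RPA3 read 14209.8 (the others 10839.8 to 11335.6), C14orf119 4093.9 (3749.6 to 3791.6), DERL2 3197.8 (2543.5 to 2553.4), GADD45A 12750.6 (9926 to 10262.3) and the respiratory chain mean 13.17 on the log2 scale (13.06 to 13.07). In tRNA vector array 1, SEMA4G read 168.4 (269.7 to 289.6), RPS9 17802.2 (19762.7 to 20169.6), IFNGR1 3464.1 (2712.8 to 2781.2) and the E2F and cell cycle mean 11.45 (11.42 to 11.42). IFNGR1 read 4414.4 in hairpin vector array 1 (3638.3 to 3715.4). The remaining 5 were RANBP17 in empty vector array 2 at 1038.8 (773.6 to 793.8), AURKA in empty vector array 3 at 4505.5 (5229.8 to 5288.8), the endoplasmic reticulum chaperone mean in empty vector array 3 at 11.52 (11.47 to 11.47), RNF185 in tRNA vector array 2 at 1043.7 (843.2 to 869.4) and RNH1 in hairpin vector array 2 at 1880.0 (1586.7 to 1619.6).

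The vectors differed from each other, by limma on hairpin minus tRNA, for the unlisted probe set (0.85), MANF (-0.42), MAP2K4 (-0.50), IFNGR1 (0.40), the DGCR8 and MIR1306 probe set (0.64) and CIRBP (0.43).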

How the results depend on the processing

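The pooled comparison called 0 probe sets in all 21 other settings (smallest adjusted p = 0.195, without empty vector array 2). At an unadjusted p under 0.05 it gave 622 higher and 391 lower without the replicate block, against 1095 and 755, and 1355 lower with no filter. Groups that did not overlap numbered 30 higher and 26 lower with the 60th percentile filter, 97 lower with no filter, and 62 to 208 higher and 61 to 183 lower with 1 array left out, when fewer arrays have to be apart. Without the 3 arrays numbered 1, a setting chosen after seeing the data, they numbered 417 and 405 of 32768 tested probe sets. Still fewer arrays then have to be apart, so more probe sets separate by chance. These counts cannot be set against the 50 and 44 of the main setting. RPA1 kept its direction in every setting for its brightest probe set, from -0.23 to -0.19 with 1 array left out, with the adjusted p from 0.581 to 1 over all settings. Its dimmest probe set gave 0.047. RPA2 ran from -0.088 to 0.043 and RPA3 from -0.065 to 0.0067 with 1 array left out. RPA2 turned to 0.043 without empty vector array 2 and 0.0029 without hairpin vector array 2, and RPA3 to 0.0067 without empty vector array 1 or the 3 arrays numbered 1. The 6 calls between the vectors became 0 without the replicate block, 0 without a trend, 10 with quantile normalization, 1 without the arrays numbered 1, and 1 to 10 with 1 array left out. They were 1 without empty vector array 3 or 4, any single tRNA vector array or hairpin vector array 3, 2 without hairpin vector array 2 or 4, and 10 without empty vector array 2. The cause was not tested. Same-number arrays of different groups deviated together at r = 0.0987 to 0.356 across probe sets. Arrays of different numbers and groups stood at -0.231 to 0.148, so the ranges overlap. The arrays numbered 1 were highest, at 0.284 to 0.356. Of 12 arrays, 9 correlated best with an array of their own number, so the pairing is only a hint from the data. The median of the microRNA pathway turned with quantile normalization, those of the microRNA pathway, tRNA processing, RNA polymerase III, endoplasmic reticulum chaperone, interferon and ribosomal protein lists turned when 1 array was left out, and that of the 293T genes turned with the 60th percentile filter.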
